A study of Homo sapiens with 6 samples.

Results

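The SNAI, TWIST and ZEB genes encode the transcription factors best known for driving epithelial-mesenchymal transition, and their transcripts were examined here in LN229 cells that overexpress LACTB. The members were the 6 rows of the deposited table whose gene symbol is SNAI1, SNAI2, TWIST1, TWIST2, ZEB1 or ZEB2, out of 24489 rows. LN229 is an established human glioblastoma line. The LACTB group is 3 libraries of LN229 cells transduced with LACTB, a mitochondrial protein related to bacterial beta-lactamases, and the vector group is 3 libraries of LN229 cells transduced with the empty vector. Both groups are transduced cells, and the labels do not say whether they are pools or clones, how long after transduction RNA was taken, or whether each library is a culture of its own, so a p-value speaks only of the spread among these libraries, which may be technical. The study asked what LACTB does in glioma cells.

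SNAI1 and SNAI2 (Snail and Slug) are zinc-finger repressors, TWIST1 and TWIST2 are basic helix-loop-helix (bHLH) factors, and ZEB1 and ZEB2 carry zinc-finger clusters at each end with a homeodomain between them. The SNAI and ZEB proteins bind E-box sequences in the promoters of epithelial genes such as CDH1 and recruit co-repressors, while TWIST proteins bind E-boxes as dimers with other bHLH proteins. In glioma, which is not an epithelial tumour, these factors are studied for invasion and for the mesenchymal state rather than for the loss of epithelial junctions. The ZEB messages are the textbook targets of the miR-200 family of microRNAs, which the ZEB proteins repress in turn.

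The miR-200 family is shown because it falls into 2 seed groups that pair with the ZEB genes. Sequences are from RefSeq (GRCh38.p14), 5′ to 3′, with the seed, bases 2 to 8, in capitals.
hsa-miR-200b-3p: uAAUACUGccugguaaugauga
hsa-miR-200c-3p: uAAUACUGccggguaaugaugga
hsa-miR-429: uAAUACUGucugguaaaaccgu
hsa-miR-200a-3p: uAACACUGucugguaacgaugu
hsa-miR-141-3p: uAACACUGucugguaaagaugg
The DNA letters complementary to the seed of the first group are CAGTATT and to that of the second CAGTGTT. In the longest annotated 3′ UTR of each member (GENCODE release 29, GRCh38, sense strand), ZEB1 held 6 CAGTATT and 3 CAGTGTT matches in 2.55 kb, and ZEB2 held 5 and 4 in 5.37 kb. SNAI2 held 1 CAGTATT match, and neither was found in SNAI1, TWIST1 or TWIST2, whose 3′ UTRs were 0.83, 0.706 and 0.737 kb. At least 1 CAGTATT match was present in 16.3% of 18782 protein-coding genes and at least 1 CAGTGTT match in 18.7%. At least as many CAGTATT matches as in ZEB1 were found in 3 genes, ZEB1 among them. A longer UTR holds more matches of any kind, and the microRNAs were not analysed here. Single sites of each gene are shown as examples, with the seed match in capitals. The capitals are the same within a seed group because the sites were found by that match.
ZEB1, from UTR base 369: tttatcttatCAGTATTatcactctta
ZEB2, from UTR base 455: tacaatgcatCAGTATTatgattcctc
ZEB1, from UTR base 1533: tttgatttaaCAGTGTTatgttaacat
ZEB2, from UTR base 1825: agctattattCAGTGTTatttataata
The base number is that of the first capital.

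Column totals, the sum of all normalized read counts of a library, were 34907394 to 35683869 in the LACTB libraries and 38049489 to 41384595 in the vector libraries, and the number of reads behind them is unknown. LACTB stood at 4268, 4078 and 4203 normalized counts in the LACTB libraries, against 458, 515 and 393 in the vector libraries, a 9.19-fold ratio of means. Of 9 markers listed for a glioblastoma line of mesenchymal and neural character, VIM, NES and CD44 each stood at 14529 normalized counts or more in every library. S100B stood at 11989 to 39915, SOX2 at 973 to 3003 and EGFR at 318 to 1336. These ranges span both groups. With LACTB, S100B fell by 1.22 on the log2 scale, and SOX2 and EGFR rose by 1.24 and 1.41 (limma adjusted p at most 4.3e-06 for each). VIM, CD44 and GFAP were also called higher and OLIG2 lower, while NES was not called. OLIG2 stood at only 256 to 512 and PROM1 at no more than 8.36. CDH1, which encodes E-cadherin, and EPCAM, both defining epithelial genes, stood at no more than 20.9. The leukocyte markers PTPRC and CD3E stood at no more than 14.6 in any library and the endothelial marker CDH5 at no more than 16.8, while CD68, a macrophage marker that other cells also express, stood at 1614 ± 51.4 in LACTB cells and 1076 ± 47.3 in vector cells (SD, n = 3 each). The endothelial markers PECAM1 and VWF stood at 34.2 to 61.5 and at 100.4 to 195 over the 6 libraries, and GFAP, an astrocyte marker, stood at only 72.3 to 126. Of 12942 tested genes 51.9% passed the threshold (limma, adjusted p under 0.05), and 52.7% of these calls were higher with LACTB, against 39.3% with median centring and 72.2% with equal column totals. The median log2 difference of all tested genes was 0.05, and these scalings put it at -0.09 and 0.24.

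All 6 members passed the low-value filter of a mean of 1 CPM (37.7 normalized counts) and were tested. Of these, 3 were higher with LACTB (ZEB1, ZEB2 and TWIST2), where the share of tested genes called higher was 27.4%, 1 was lower (TWIST1), where the share called lower was 24.5%, and SNAI1 and SNAI2 did not pass. The 4 members that passed were also the 4 whose groups did not overlap, beside 59.7% of all tested genes. A share of 4 in 6 is near the share over the transcriptome, so the number of members called is not a result about this family. The median log2 difference of the 6 was 0.30, against 0.05 over all tested genes. In bulk RNA, a change in the number of cells that use a gene and a change in RNA per cell cannot be told apart.

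**Figure D1:**
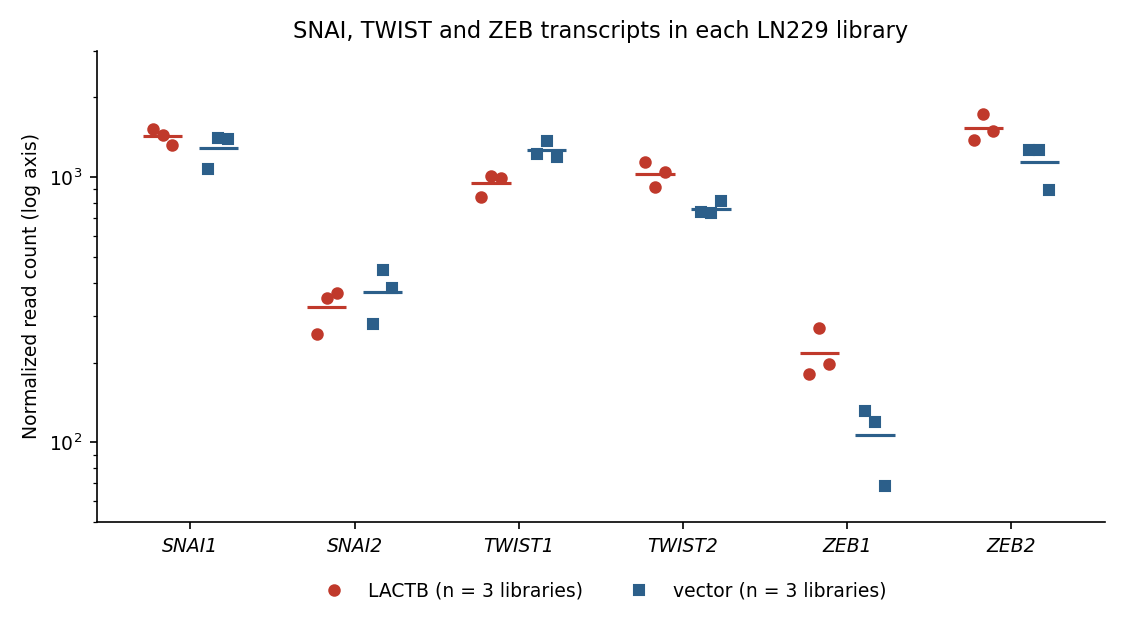
Normalized read counts (log axis) of the 6 genes in each library, with LACTB libraries (circles) left of vector libraries (squares) and a line at each group's mean. The circles lie above the squares without overlap for TWIST2, ZEB1 and ZEB2, below them for TWIST1, and overlap them for SNAI1 and SNAI2.

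ZEB1 had the largest difference of the members and the lowest level. It stood at 182, 271 and 198 normalized counts in LACTB libraries 1, 2 and 3, against 131, 120 and 68.4 in vector libraries 1, 2 and 3. LACTB library 2 was the highest and vector library 3 the lowest. The means were 217 ± 47.4 in LACTB cells and 106 ± 33.3 in vector cells (SD, n = 3 each), a log2 difference of 1.05 (SE 0.25, 95% interval 0.54 to 1.57, limma adjusted p = 0.0013). Of all tested genes, 9.32% had a larger difference in size. ZEB1 (ENSG00000148516.21) lies on chromosome 10, 31318495 to 31529814, plus strand, and is the ZEB protein best known as a repressor of CDH1 in carcinoma cells. Its call was kept without any single library, with log2 differences of 0.77 (without vector library 3) to 1.23, and was lost after removal of the trend with transcript length and GC content (0.495, adjusted p = 0.07).

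ZEB2 was the more abundant of the ZEB pair. It stood at 1388, 1730 and 1489 normalized counts in the LACTB libraries, against 1265, 1269 and 891 in the vector libraries. The order of the libraries within each group at the extremes was that of ZEB1, with LACTB library 2 highest and vector library 3 lowest. The means were 1536 ± 176 in LACTB cells and 1142 ± 217 in vector cells (SD, n = 3 each), a log2 difference of 0.44 (SE 0.14, 95% interval 0.14 to 0.74, limma adjusted p = 0.013). ZEB2 (ENSG00000169554.19) lies on chromosome 2, 144364364 to 144524583, minus strand, and is also a factor of neural crest and glial development. The call rested on single libraries, since without vector library 3 the difference was 0.27 (adjusted p = 0.094) and without LACTB library 2 it was 0.35 (adjusted p = 0.084). After length and GC removal the sign was reversed (-0.25, adjusted p = 0.049), and with median centring the call was lost (0.31, adjusted p = 0.062), as it was with limma without trend and robust settings (adjusted p = 0.061).

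Transcript length and GC content moved with the differences. The trend fitted over all tested genes at the length and GC of ZEB1 (6.27 kb, 38.5% GC) amounted to a log2 difference of 0.56, and at those of ZEB2 (9.58 kb, 39.1% GC) to 0.69. The trend at the short, GC-rich SNAI1, TWIST1 and TWIST2 transcripts was -0.38, -0.37 and -0.39, and at SNAI2 (2.43 kb, 41.8% GC) it was 0.18. The observed difference was larger than the trend for ZEB1 and smaller than it for ZEB2. What the trend comes from was not tested.

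TWIST1 fell. It stood at 841, 1014 and 994 normalized counts in the LACTB libraries, against 1221, 1371 and 1197 in the vector libraries, and every LACTB library was below every vector library. The means were 949 ± 94.6 in LACTB cells and 1263 ± 94.1 in vector cells (SD, n = 3 each), a log2 difference of -0.41 (SE 0.13, 95% interval -0.68 to -0.15, limma adjusted p = 0.010). TWIST1 (ENSG00000122691.12) lies on chromosome 7, 19020991 to 19117672, minus strand, and is required for cranial mesenchyme and neural tube closure in mice. The call was lost with equal column totals (-0.22, adjusted p = 0.19), after length and GC removal (-0.047, adjusted p = 0.77) and without LACTB library 1 (-0.33, adjusted p = 0.088), the library with the lowest value.

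TWIST2 rose. It stood at 1137, 918 and 1044 normalized counts in the LACTB libraries, against 742, 731 and 813 in the vector libraries. LACTB library 1, the lowest for TWIST1, was the highest for TWIST2. The means were 1033 ± 110 in LACTB cells and 762 ± 44.6 in vector cells (SD, n = 3 each), a log2 difference of 0.43 (SE 0.13, 95% interval 0.16 to 0.71, limma adjusted p = 0.0096). TWIST2 (ENSG00000233608.3) lies on chromosome 2, 238848032 to 238910543, plus strand, and is expressed in dermal and other mesenchymal cells in mice. The call was lost with median centring (0.30, adjusted p = 0.068), with quantile normalization (0.32, adjusted p = 0.051) and without LACTB library 1 (0.36, adjusted p = 0.077), while after length and GC removal the difference was larger (0.82, adjusted p = 2.6e-05).

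SNAI1 did not pass. It stood at 1519, 1446 and 1319 normalized counts in the LACTB libraries, against 1073, 1407 and 1389 in the vector libraries, so that only vector library 1 stood clearly below the others. The means were 1428 ± 101.5 in LACTB cells and 1290 ± 187 in vector cells (SD, n = 3 each), a log2 difference of 0.16 (SE 0.13, 95% interval -0.12 to 0.43, limma adjusted p = 0.33). SNAI1 (ENSG00000124216.3) lies on chromosome 20, 49982999 to 49988886, plus strand, and encodes a short-lived protein whose amount is set largely by degradation, which RNA levels do not show. Without vector library 1 the difference was 0.029, while the test called it higher when column totals were made equal (0.35, adjusted p = 0.048) and after length and GC removal (0.53, adjusted p = 0.0022).

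SNAI2 did not pass either. It stood at 256, 352 and 367 normalized counts in the LACTB libraries, against 281, 447 and 383 in the vector libraries, and the groups overlapped. The means were 325 ± 60.6 in LACTB cells and 370.2 ± 84.1 in vector cells (SD, n = 3 each), a log2 difference of -0.18 (SE 0.19, 95% interval -0.58 to 0.22, limma adjusted p = 0.45). SNAI2 (ENSG00000019549.11) lies on chromosome 8, 48917604 to 48921740, minus strand, and acts in neural crest and melanocyte development. It passed in none of 17 alternatives, and with equal column totals the difference was 0.012. Library 1 of each group held its lowest value.

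Within each pair, a factor applied to a whole library cancels in the balance between the genes, while quantile normalization does not cancel. The difference of log2(value + 1) for TWIST1 minus TWIST2 was -0.43, 0.14 and -0.07 in the LACTB libraries, against 0.72, 0.91 and 0.56 in the vector libraries. The balance was lower by 0.85 in LACTB cells (exact permutation test over 6 libraries, two-sided, p = 0.1, the smallest that 3 against 3 allows, and 0.15 adjusted over 3 pairs). Leaving out any single library gave -0.98 to -0.69. The TWIST transcripts have nearly the same length and GC content (1.67 kb and 57.2% for TWIST1, 1.4 kb and 57.0% for TWIST2), and per kb of transcript TWIST1 made up 38.4%, 48.2% and 44.5% of the pair in the LACTB libraries, against 58.1%, 61.2% and 55.4% in the vector libraries. Per kb TWIST1 was thus below TWIST2 in every LACTB library and above it in every vector library. With quantile normalization the difference in balance was -0.81.

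For the ZEB pair, ZEB1 minus ZEB2 was -2.92, -2.67 and -2.90 in the LACTB libraries, against -3.26, -3.39 and -3.69 in the vector libraries. ZEB1 stayed the minor member in all 6, with 16.7% to 19.3% of the pair per kb in LACTB cells and 10.5% to 13.7% in vector cells. The balance was 0.61 higher in LACTB cells (exact permutation test, two-sided, p = 0.1, and 0.15 adjusted over 3 pairs), or 0.41 with a pseudocount of 1 CPM and 0.51 with quantile normalization. For the SNAI pair, SNAI1 minus SNAI2 was 2.57, 2.04 and 1.84 in the LACTB libraries, against 1.93, 1.65 and 1.86 in the vector libraries. These groups overlapped (difference 0.34, exact permutation test, two-sided, p = 0.3), and without LACTB library 1 the difference was 0.13, while it was 0.89 after length and GC removal.

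**Figure D2:**
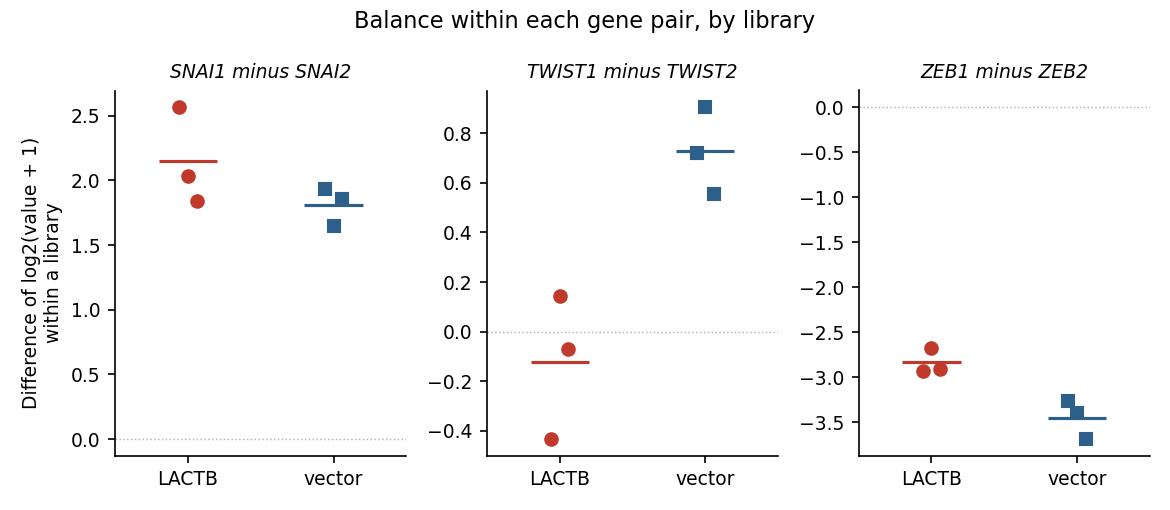
Difference of log2(value + 1) between the genes of each pair within each library, with LACTB libraries (circles) left of vector libraries (squares), a line at each group's mean and a dotted line at equal level. The LACTB points lie below the vector points for TWIST1 minus TWIST2 and above them for ZEB1 minus ZEB2, without overlap, and overlap for SNAI1 minus SNAI2.

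Levels of the 6 genes were compared with each other per kb of the longest protein-coding transcript. In LACTB cells the order of mean levels was SNAI1 (847 normalized counts per kb), TWIST2 (736), TWIST1 (570.0), ZEB2 (160.0), SNAI2 (134) and ZEB1 (34.6). In vector cells it was SNAI1 (765), TWIST1 (758), TWIST2 (543), SNAI2 (152), ZEB2 (119) and ZEB1 (10.9 to 20.9 over the libraries). SNAI1 and TWIST2 overlapped between libraries in LACTB cells, at 782 to 901 and 654 to 810, and so did ZEB2 and SNAI2, at 145 to 181 and 105 to 151. In vector cells SNAI1 and TWIST1 overlapped, at 637 to 834 and 719 to 823, as did SNAI2 and ZEB2, at 116 to 184 and 93.0 to 132. TWIST1 and TWIST2 exchanged places between the groups, and ZEB1 was the lowest in both. ZEB2 and SNAI2 exchanged places only by their means, since in vector library 1 ZEB2 (132) was above SNAI2 (116), as in the LACTB libraries.

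The longest run of identical bases between transcripts was 11 for SNAI1 and SNAI2, 23 for TWIST1 and TWIST2, and 20 for ZEB1 and ZEB2. SNAI1 shared a run of 37 bases with its pseudogene SNAI1P1 and ZEB2 one of 81 with ZEB2P1, and reads within such a run could be placed at either copy. The annotation has antisense genes across TWIST1, ZEB1 and ZEB2, and a strand setting is not given in the sources used here, so sense and antisense reads cannot be told apart where they overlap. ZEB1-AS1, which overlaps 1953 bases of the ZEB1 gene, stood at 72.5 ± 6.02 normalized counts in LACTB cells and 68.9 ± 12.5 in vector cells (SD, n = 3 each, log2 difference 0.09, limma adjusted p = 0.81). ZEB2-AS1 stood below the filter, at means of 1.93 in LACTB cells and 1.44 in vector cells. Of the antisense and microRNA host RNAs listed, 2 were tested and neither passed (median log2 difference -0.21).

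**Figure D3:**
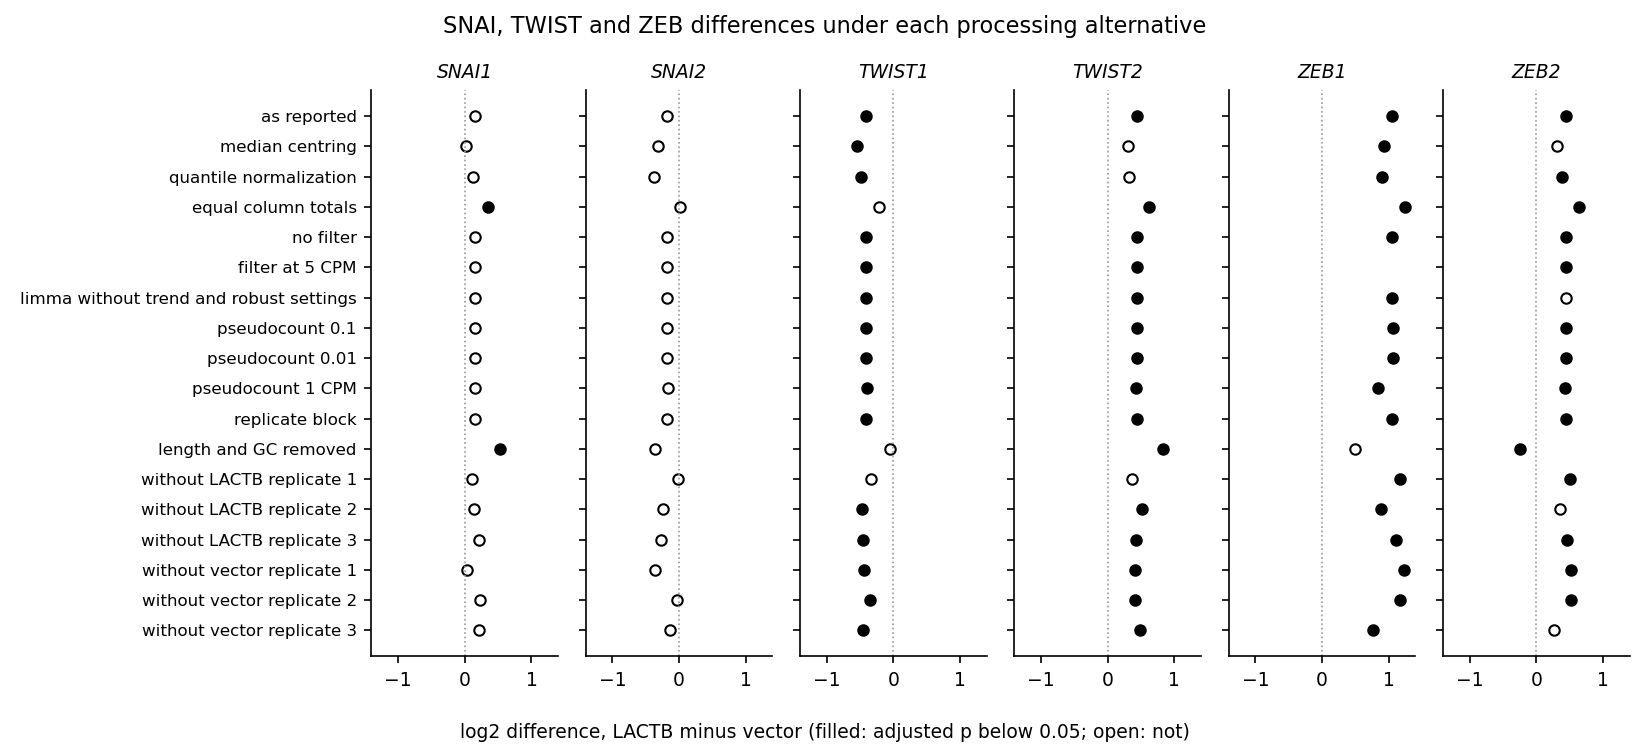
Log2 difference, LACTB minus vector, of each of the 6 genes as reported and under each processing alternative, filled where the adjusted p was below 0.05 and open where it was not. ZEB1 lies to the right of 0 in every row, ZEB2 does so except after length and GC removal, where it is at -0.25, TWIST1 lies to the left and TWIST2 to the right in every row. ZEB1 has no point at the filter of 5 CPM, which it did not reach.

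The E-box through which SNAI and ZEB proteins act, CAGGTG with its reverse complement CACCTG, was searched on both strands in the RefSeq promoter windows, 250 bases before to 50 after a gene start. Every such match is also a match to the general E-box CANNTG. It was present in 20.6% of 35116 windows of 27305 genes, and at least 3 matches were present in 0.635%. CRB3 and PATJ, genes of the Crumbs polarity complex that ZEB1 is known to repress in human carcinoma cells, are shown beside the ZEB1 window with the most matches, because few windows hold as many; CRB3 and PATJ were chosen after their values were seen. E-boxes are in capitals.
ZEB1, 3 matches, GRCh38.p14, chr10:31318966-31319265, plus strand: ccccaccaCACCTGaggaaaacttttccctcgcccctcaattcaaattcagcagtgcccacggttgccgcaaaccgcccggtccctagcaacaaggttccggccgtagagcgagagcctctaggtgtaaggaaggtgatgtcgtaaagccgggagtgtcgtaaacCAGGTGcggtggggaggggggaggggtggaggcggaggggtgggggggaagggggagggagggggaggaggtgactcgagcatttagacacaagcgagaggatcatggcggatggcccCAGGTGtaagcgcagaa
CRB3, 5 matches, GRCh38.p14, chr19:6464021-6464320, plus strand: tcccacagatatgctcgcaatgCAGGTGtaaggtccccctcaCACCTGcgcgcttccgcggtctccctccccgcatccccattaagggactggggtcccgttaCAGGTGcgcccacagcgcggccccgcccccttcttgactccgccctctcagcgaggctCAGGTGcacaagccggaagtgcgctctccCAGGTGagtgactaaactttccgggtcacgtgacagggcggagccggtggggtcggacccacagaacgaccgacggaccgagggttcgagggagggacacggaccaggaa
PATJ, 3 matches, GRCh38.p14, chr1:61742230-61742529, plus strand: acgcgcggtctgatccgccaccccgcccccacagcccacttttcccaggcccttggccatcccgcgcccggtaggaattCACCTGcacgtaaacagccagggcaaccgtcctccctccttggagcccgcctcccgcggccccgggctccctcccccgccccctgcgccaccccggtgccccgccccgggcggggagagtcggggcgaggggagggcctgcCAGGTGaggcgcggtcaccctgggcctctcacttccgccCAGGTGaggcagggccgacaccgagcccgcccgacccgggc
CRB3 stood near 0 in both groups, at 0.692 ± 1.20 normalized counts in LACTB cells and 1.44 ± 1.23 in vector cells, while PATJ rose, at 305 ± 26.5 in LACTB cells and 174 ± 22.7 in vector cells (SD, n = 3 each, log2 difference 0.81, limma adjusted p = 0.0011). The box was present in 17 of 29 windows (58.6%) of 22 of the 40 listed epithelial genes and in 4 of 36 (11.1%) of 24 of the 33 listed mesenchymal genes, against 20.6% of all windows. The epithelial list holds genes that these factors are known to repress, so its share is not independent of how the list was made. Windows of 1 gene were counted separately. Among the members, no window of TWIST2 or ZEB2 held the CAGGTG box, and 2 of 7 windows of ZEB1 did. Promoters of SNAI1, SNAI2, TWIST1 and CDH1 were not analysed here.

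Epithelial genes, the classical targets of repression, went both ways. Of 40 listed genes, 26 were under the filter, and of the 14 tested, 6 rose, 5 fell and 3 did not pass (median log2 difference 0.11, against 0.05 over all tested genes). Over all tested genes 27.4% were called higher and 24.5% lower. CDH1 stood at 7.05, 0 and 9.42 normalized counts in the LACTB libraries, against 20.9, 0.184 and 3.31 in the vector libraries, too low for a test. The desmosomal cadherin DSG2 rose, at 2838 ± 52.2 in LACTB cells and 1059 ± 164 in vector cells. The keratins KRT18 and KRT8, partners in simple epithelial filaments, fell, KRT18 by 1.15 and KRT8 by 1.01 on the log2 scale (limma adjusted p = 7.3e-08 and 2.7e-06), and the protease inhibitor SPINT1 fell by 1.71 (adjusted p = 7.4e-08). The summed level of 6 epithelial markers (CDH1, EPCAM, KRT8, KRT18, KRT19 and CLDN4), 3 of them under the filter, was 2826 to 3343 in LACTB cells and 5934 to 7238 in vector cells. Nearly all of that sum was KRT18 and KRT8, while CLDN4 stood at 59.8 ± 18.6 in LACTB cells and 61.6 ± 7.36 in vector cells (SD, n = 3 each, limma adjusted p = 0.84). The part of this sum in the result was not tested. Falls numbered 3 with equal column totals and 3 after length and GC removal. The list median turned negative with median centring (-0.02, against -0.09 over all tested genes). It did so also at a filter of 5 CPM, which left 8 of the listed genes (-0.17, against 0.02 over all tested genes).

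Mesenchymal genes, which rise when these factors act in epithelial cells, were mostly higher. Of 33 listed genes 27 were tested, and 16 rose, 4 fell and 7 did not pass, where 27.4% of all tested genes were called higher and 24.5% lower (median 0.45, against 0.05 over all tested genes). N-cadherin (CDH2) stood at 4754, 5027 and 5190 normalized counts in the LACTB libraries, against 1978, 2617 and 2368 in the vector libraries (log2 difference 1.11, limma adjusted p = 1.3e-07). Fibronectin (FN1) rose by 0.89 and vimentin (VIM) by 0.48 on the log2 scale (adjusted p = 3.0e-05 and 0.0012). TAGLN, an actin-binding protein of smooth muscle, rose by 2.61 and the integrin ITGAV by 1.46. The summed level of 5 fibroblast markers (COL1A1, COL1A2, PDGFRB, DCN and LUM) was 1609 to 1702 in LACTB cells and 1038 to 1190 in vector cells, with none of the 5 under the filter, and its part in the result was not tested. LUM, at 1059 ± 95.8 in LACTB cells and 304 ± 109 in vector cells (SD, n = 3 each), carried the higher sum, with COL1A1 also called higher, COL1A2 and DCN called lower, and PDGFRB not past the threshold.

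Partners of the TWIST proteins were measured beside them. Of 9 tested genes listed as partners or antagonists of TWIST, which were bHLH proteins, ID proteins and RUNX2, 3 rose, 1 fell and 5 did not pass (median 0.03, and 0.41 after length and GC removal). The shares over all tested genes were 27.4% higher and 24.5% lower. TCF4 and TCF12, bHLH proteins that pair with TWIST, stood at 737 ± 53.5 and 1649 ± 191 in LACTB cells, against 283 ± 44.7 and 869.6 ± 109 in vector cells, and rose by 1.39 and 0.92 on the log2 scale (limma adjusted p = 4.6e-07 and 7.2e-06). RUNX2, a factor of bone formation that TWIST proteins inhibit in mice, rose by 0.95 (adjusted p = 0.00036). HAND2, a bHLH factor of heart and limb, fell by 0.53 (adjusted p = 0.0038), a call lost with equal column totals (adjusted p = 0.063) and after length and GC removal (0.065). None of ID1, ID2, ID3 and ID4, inhibitors that sequester bHLH proteins, passed in the fit as reported. After length and GC removal more genes of this list were called higher, ID genes among them.

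Co-repressors and chromatin partners were all above the filter, and of 29 tested 12 rose, 5 fell and 12 did not pass (median 0.19, and 0.10 after length and GC removal). The shares over all tested genes were 27.4% higher and 24.5% lower. EZH2 and SUZ12, subunits of the Polycomb complex PRC2 that SNAI1 recruits, rose by 0.74 and 0.82 (limma adjusted p = 7.7e-05 and 8.5e-05). Of the Ajuba family LIM proteins, which bridge SNAI1 to co-repressors, LIMD1 rose by 0.85 (adjusted p = 6.2e-05). AJUBA also rose, by 0.40 (limma adjusted p = 0.013), while WTIP fell by 0.85 (adjusted p = 0.00014). With median centring 7 rose and as many fell, and the list median was 0.06, against -0.09 over all tested genes. With equal column totals 2 fell, and the list median was 0.38, against 0.24 over all tested genes. The excess of rises in this list thus depended on the scaling.

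Regulators of the stability and localization of the factor proteins went both ways, with 18 of 49 tested genes higher, 10 lower and 21 not passing (median 0.18). The shares over all tested genes were 27.4% higher and 24.5% lower. The deubiquitinase USP1 rose by 1.09 and the ubiquitin ligase SMURF1 by 0.80, while the ubiquitin ligase STUB1 fell by 0.69 (limma adjusted p at most 3.8e-05 for each). After length and GC removal 9 rose and 17 fell, so the balance of this list turned with that setting.

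Other transcription factors of epithelial-mesenchymal transition were higher for 10 of 21 tested genes and lower for 5 (median 0.31), where 27.4% of all tested genes were called higher and 24.5% lower. After length and GC removal the median was 0.03. FOXC2 and FOXC1, forkhead factors of mesenchyme, stood at 857 ± 149 and 979 ± 60.1 in LACTB cells, against 277 ± 77.1 and 497 ± 72.3 in vector cells. PRRX1, a homeobox factor of mesenchyme, rose by 1.17, and TBX2, a T-box repressor, fell by 1.28 (limma adjusted p = 5.3e-08 and 5.1e-08). SNAI3, the remaining Snail gene, was below the filter, at 20.8 ± 9.55 in LACTB cells and 11.6 ± 4.57 in vector cells (SD, n = 3 each). Of 37 tested inducers upstream of the factors, 17 rose and 6 fell (median 0.36, and 0.09 after length and GC removal). Of all tested genes 27.4% were called higher and 24.5% lower. The Notch ligand JAG1 rose by 1.69, the Hedgehog effector GLI3 by 1.10 and the receptor MET by 1.03, while the receptor FGFR1 fell by 1.33 (limma adjusted p at most 2.1e-06 for each).

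**Figure D4:**
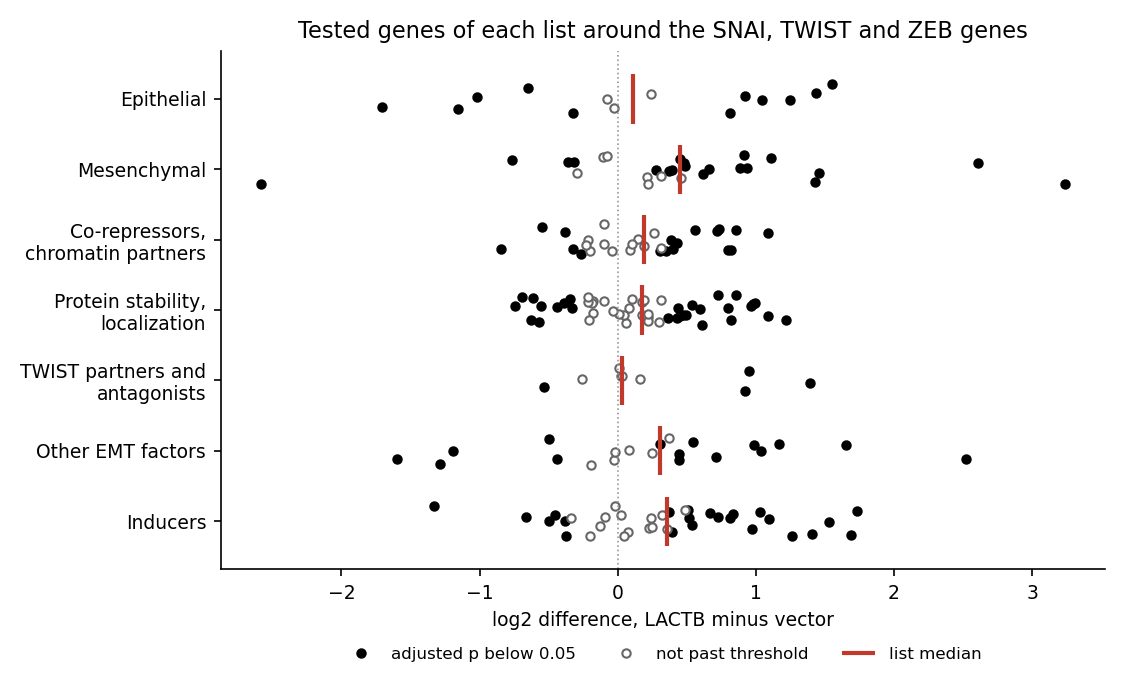
Log2 difference, LACTB minus vector, of each tested gene in 7 lists around the 6 factors (vertical scatter within a row has no meaning), filled where the adjusted p was below 0.05, with a bar at the list median. The mesenchymal median is at 0.45 and the epithelial median at 0.11, with epithelial genes spread to both sides.

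The tested genes whose values over the 6 libraries were most like each member were found by the root mean square difference of log2(value + 1), each gene centred on its own mean. With only 6 libraries in 2 groups, such likeness follows mainly the group difference and single libraries. The closest to ZEB1 were HAUS6 (0.077) and SMARCAD1 (0.096), and to ZEB2 KLHL9 (0.029) and XPR1 (0.053). To TWIST1 they were ARHGEF6 (0.028) and FHL1 (0.053), both on chromosome X, and to TWIST2 PHF1 (0.029) and COQ2 (0.051). To SNAI1 they were SLC7A1 (0.038) and UPF1 (0.041), and to SNAI2 KLF9 (0.071) and COL4A5 (0.078).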

How the data were processed

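RNA of 6 LN229 libraries was sequenced. Trizol and chloroform extraction and NEB library construction are named per the labels' protocols, and HISAT2 and hg38 per the submitters' processing notes. Not given in the sources used here were the counter, annotation, strand setting and way of normalization. The authors deposited 1 signal for each gene in each library, a normalized read count that is not whole, so a count model was not applied. How many reads lie behind a value is unknown, and no counting interval is given.

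Values below 1e-10 were set to 0, and where a symbol had several rows (9 symbols) it was kept for the higher one. The scale was log2(value + 1), on which the change of low genes is understated. The low-value filter was a mean of 1 CPM, or 37.7 normalized counts. LACTB and vector libraries were compared with limma (version 3.58.1, R 4.3.3, trended and robust variance), two-sided, adjusted by Benjamini-Hochberg over 12942 genes, at a threshold of 0.05, and the fit was tested on simulated data. Positions are those of the gene in GENCODE release 29, and lengths and GC those of its longest protein-coding transcript. Where a gene had none, the longest other transcript was taken. Length and GC were both known for 98.3% of tested genes, and the trend with them was removed with splines of 5 degrees of freedom. Alternatives changed the scaling, filter, pseudocount, variance settings and libraries used.

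The members and 8 gene lists were chosen with earlier results of these data known. Of 247 list entries 237 matched the table. Named genes were the members, LACTB, CDH1, CDH2, VIM, FN1, up to 4 called genes per list by adjusted p, and the 2 genes most like each member. Some genes that this rule names are not reported here. PATJ, CRB3, SNAI3, AJUBA, the ID genes, the markers and the antisense genes lie outside that rule and were named after their values were seen. Figures were drawn with matplotlib 3.10.9.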

Additional observations from a re-analysis of the deposited data

How the results depend on the processing

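ZEB1 kept its direction in 16 of 16 alternatives and its call in 15, LACTB both in 17 of 17, and SNAI2 passed in none of 17. The filters, the variance settings and the replicate block can change only the adjusted p, not the log2 difference (1.055 for ZEB1). The direction could therefore not turn in those alternatives. With equal column totals the log2 difference was 0.348 for SNAI1 (now past the threshold), 0.012 for SNAI2 (sign turned) and -0.222 for TWIST1 (call lost). After length and GC removal it was 0.532 for SNAI1 (now past the threshold), -0.047 for TWIST1 and 0.495 for ZEB1 (calls lost), and -0.247 for ZEB2 (sign turned). Calls were lost with median centring for TWIST2 (0.302) and ZEB2 (0.308), with quantile normalization for TWIST2 (0.32), and for ZEB2 without trend and robust settings (0.44). The ZEB1 minus ZEB2 balance was 0.407 with a pseudocount of 1 CPM, and the SNAI1 minus SNAI2 balance 0.887 after length and GC removal, an alternative chosen after seeing the data, as were the other scalings of the balances. The cause of these changes was not tested.

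Leaving out 1 library at a time gave -0.464 to -0.329 for TWIST1, 0.363 to 0.517 for TWIST2 and 0.271 to 0.526 for ZEB2, and 2 to 5 lower mesenchymal genes (2 without LACTB library 3) and 2 to 8 lower co-repressors (3 without LACTB library 1, 2 without LACTB library 2 or 3, 8 without vector library 1). The genes most like SNAI2 turned sign, COL4A5 to 0.099 and KLF9 to 0.057 with equal column totals, with ranges on leaving out 1 library of -0.295 to 0.054 for COL4A5 and -0.36 to 0.062 for KLF9. UPF1 turned sign without vector library 1 (-0.004), with a range up to 0.24, and KLHL9 (-0.052) and XPR1 (-0.256) did so after length and GC removal.

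With equal column totals 1913 genes were lower, among them 3 epithelial genes, 2 mesenchymal genes, 2 co-repressors, 0 TWIST partners and 3 inducers. After length and GC removal 3 epithelial genes and 0 TWIST partners were lower and 6 TWIST partners higher, and 9 stability regulators were higher and 17 lower. At an adjusted p of 0.01, 3 epithelial and 2 mesenchymal genes were lower, and 7 co-repressors were higher and 2 lower. Median centring and the fit without trend and robust settings each gave 7 higher co-repressors. The first gave as many lower ones, and the second gave 2 lower ones. With quantile normalization 2 mesenchymal genes and 3 co-repressors were lower. With median centring and with quantile normalization 1 antisense or host RNA was lower. A filter of 5 CPM left 2 higher epithelial genes, 33.3% of the calls in that list, and turned the list median to -0.173.

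Libraries of the same number did not deviate together in every pair (r = 0.0227, 0.183 and 0.00441), so they were taken to share only a number. Only LACTB library 2 correlated best with the vector library of its own number. With the replicate block 3672 genes were higher and 3206 lower, and no member's call changed. Unknown read depth limits what can be said of low values.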

Other observations

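Values under 10 normalized counts repeated across genes. Of 7857 rows with a LACTB mean below 10 and any value above 0, 87.4% shared all 3 LACTB values with another such row, and of 7398 rows chosen likewise by the vector mean 89.8% shared all 3 vector values. The 3 vector values of EPCAM were also those of 586 other rows, and those of CDH1 of 0 other rows.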
